A study of Mus musculus with 12 samples.

Results

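The transcripts of 10 genes of the NF-κB system were followed in 3T3-L1 cells, mouse embryonic fibroblasts kept as a line that can form adipocytes, after stimulation with type 2 and inflammatory cytokines. The 10 genes are the 5 subunits Nfkb1, Nfkb2, Rel, Rela and Relb, the IκB proteins Nfkbia, Nfkbie, Nfkbiz and Bcl3, and Tnfaip3. They were taken by symbol from the 56941 genes of the count table, and all 10 passed the filter that left 14810 genes for testing. Wild-type cells were left unstimulated (control), or received IL-4 and IL-13 at 50 ng/mL each (IL-4/13), the inflammatory cocktail of 20 ng/mL TNF-α, 50 ng/mL IL-17A and 0.5 ng/mL IL-1β (Inf), or all 5 cytokines (IL-4/13 + Inf). Poly(A) RNA was collected after 24 hours, with 3 libraries per condition and 13446005 to 20775769 counted reads per library. All libraries come from 1 line and carry the same batch label. The labels do not say whether the 3 libraries of a condition were separate cultures, so p-values measure the spread between these libraries, which may be technical.

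NF-κB factors are dimers of Rel family subunits that resting cells hold in the cytoplasm bound to IκB proteins. TNF-α, IL-1β and, more weakly, IL-17A activate the IκB kinase complex, which marks the IκB proteins for degradation and frees the dimers to enter the nucleus. Many genes of the system are themselves NF-κB targets, including Nfkbia and Tnfaip3, whose products shut the pathway down again. IL-4 and IL-13 signal mainly through STAT6.

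For 7 of the 10 genes the RefSeq promoter table (GRCm38.p6) held 10 promoters, and these were searched over the 250 bases before the start site, on both strands, for the 10-base κB consensus to which NF-κB dimers bind. The genes were Nfkb2, Rel, Rela, Nfkbia, Nfkbie, Bcl3 and Tnfaip3. Nfkb1, Relb and Nfkbiz had no promoter in the table and were not searched. Matches were present in 7 of the 10 promoters, from 5 of the 7 genes searched, whereas the windows of Rela and Bcl3 held none. Over all 32851 promoters in the table, 3.9% held a match. The matched stretches are shown 5′ to 3′ on the gene's strand, with the matching bases in capitals, because several of these genes are known targets of the pathway they belong to. Nfkb2 has 3 promoters in the table, each with a match, and the first is shown. The locations, in the same order, are chr12:55492657-55492686 on the minus strand, chr10:19015411-19015432 and chr10:19015516-19015545 on the minus strand, chr11:23771042-23771070 on the minus strand, chr17:45555584-45555613 on the plus strand, and chr19:46304689-46304717 and chr19:46304716-46304736 on the plus strand.
Nfkbia: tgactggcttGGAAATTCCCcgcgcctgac
Tnfaip3, near the start site: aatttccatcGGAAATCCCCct
Tnfaip3, further upstream: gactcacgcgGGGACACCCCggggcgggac
Rel: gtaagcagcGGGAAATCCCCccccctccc
Nfkbie: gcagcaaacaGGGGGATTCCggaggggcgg
Nfkb2, further upstream: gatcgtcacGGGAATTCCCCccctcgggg
Nfkb2, near the start site: ggggccgaaaGGGGCTTTCCc

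Counted from the start site, the capitals begin at −29 in Nfkbia, at −12 and −125 in Tnfaip3, at −92 in Rel, at −106 in Nfkbie, and at −39 and −11 in Nfkb2. In Rel and in the upstream Nfkb2 stretch the capitals cover 2 overlapping matches. The general STAT motif, TTC and GAA with 3 bases between them, was present in 7.02% of all promoters. It matched once among the 7 members searched, at −148 in Nfkb2. The form with 4 bases between them, which STAT6 binds, was present in 5.85% of promoters and matched once, at −242 in Tnfaip3. A match is a string of letters and does not show binding.

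The defining markers of fibroblasts were present. All 9 passed the filter, and their summed level was 14630 to 16690 CPM (counts scaled to the size of the library) in control, 12640 to 13660 under IL-4/13 or Inf and 10620 to 10870 in IL-4/13 + Inf. The 9 did not move together, since 4 rose and 4 fell in Inf against control, where the proteoglycan gene Dcn went from 103.2 to 1756 CPM and the collagen gene Col1a1 from 3893 to 2493. In control, the adipocyte markers Adipoq, Lep and Cfd had no reads, and the summed level of the 8 adipocyte markers was 31.8 to 37.6 CPM. It was 38.03 to 44.2 CPM with IL-4/13, 38.2 to 42.3 with Inf and 30.1 to 33.5 with both. Fabp4 rose from 11.3 to 30.1 CPM between control and Inf, and Pparg fell from 18.1 to 7.71. Of 10 macrophage markers, C1qa had no reads in any library. The macrophage sum was 20.4 to 24.01 CPM in control, 24.1 to 26.4 in IL-4/13, 46.9 to 61.6 in Inf and 46.1 to 52.6 in IL-4/13 + Inf, and Cd14 made up 44.7 ± 6.8 CPM (SD, n = 3) of it in Inf. The part of these shifts in the members' results was not tested. Sums of T cell, epithelial and endothelial markers stayed at or below 1.58 CPM. Within conditions, the third Inf library stood furthest from its partners, with a chi-square per gene of 8.94 and 9.41 against 2.34 to 5.15 for the other pairs. Without it, the members called numbered 10 in Inf against control, 4 in IL-4/13 + Inf against Inf and 5 in the interaction, in place of the 10, 5 and 6 described here.

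The first question was how each cytokine mixture changed the members against control. Inf raised all 10 by edgeR's quasi-likelihood test, where a call needed an adjusted p below 0.05 together with a log2 fold change past 0.25. By the same rule 16.3% of all tested genes rose and 15.3% fell. IL-4/13 raised 6 of 10 (Nfkb1, Nfkb2, Relb, Nfkbia, Nfkbie and Bcl3) and lowered none, against backgrounds of 2.78% up and 2.57% down. IL-4/13 + Inf raised all 10, where 13.4% of genes rose and 11.5% fell. The median log2 fold change of the members was 1.25 in Inf, 0.31 in IL-4/13 and 1.52 in IL-4/13 + Inf, with the medians over all tested genes within 0.01 of 0. All 3 comparisons share the control libraries. In bulk RNA, fewer cells of a type and less RNA per cell cannot be told apart.

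**Figure D1:**
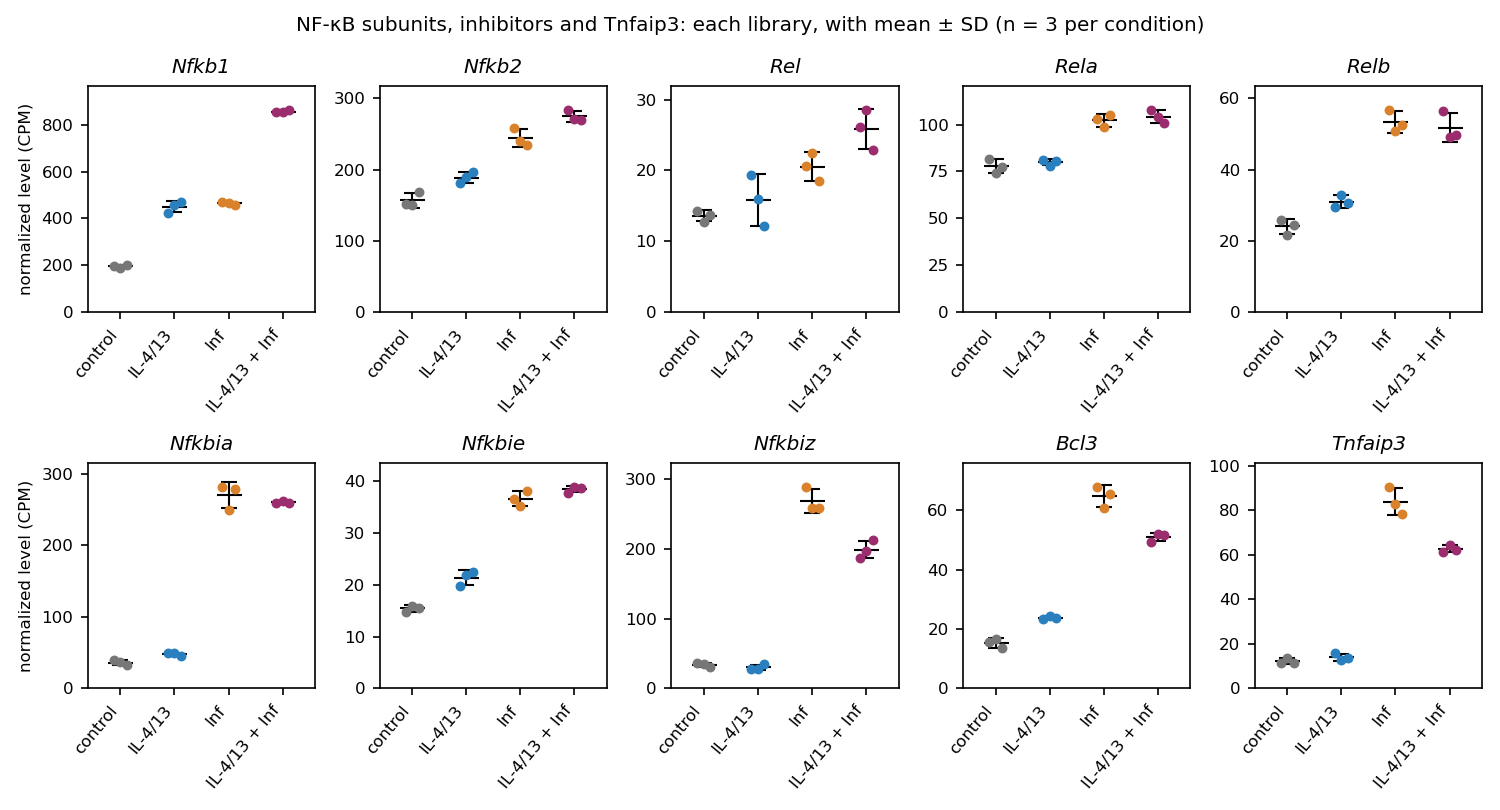
Normalized level in CPM (linear axis from 0) of the 10 genes in each library by condition, with points for the 3 libraries and black marks for the mean ± SD. Nfkb1 is highest in IL-4/13 + Inf (853 to 863 CPM), whereas Nfkbiz, Bcl3 and Tnfaip3 are lower in IL-4/13 + Inf than in Inf in every library.

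Among the subunits, Nfkb1 (ENSMUSG00000028163) had the largest response to IL-4/13. It encodes p105, an IκB-like precursor that is processed to the DNA-binding subunit p50. Nfkb1 was at 197, 188 and 202 CPM in control, 424, 457 and 468 with IL-4/13, 471, 466 and 459 with Inf, and 855, 853 and 863 with IL-4/13 + Inf. The combined condition lay far above the others, control lay below them, and the IL-4/13 and Inf libraries overlapped. The log2 fold change against control was 1.20 ± 0.04 (SE) in IL-4/13 (adjusted p = 2.5e-19, edgeR), 1.25 ± 0.04 in Inf (5.6e-21) and 2.13 ± 0.04 in IL-4/13 + Inf (6.6e-27). No other member rose in IL-4/13 by a log2 fold change above 0.64. About 1.1% of the 50-base stretches of the longest Nfkb1 transcript also occur in transcripts of other genes.

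Nfkb2 (ENSMUSG00000025225) encodes p100, the precursor of p52 in the non-canonical branch of the pathway. Its levels were 152, 149.7 and 169 CPM in control, 181, 189 and 197 with IL-4/13, 259, 240.4 and 235 with Inf, and 283, 272 and 269 with IL-4/13 + Inf. The 4 conditions formed 4 separate steps with no overlap between neighbours. Against control the log2 fold change was 0.27 ± 0.05 in IL-4/13 (adjusted p = 5.0e-04, edgeR), 0.64 ± 0.05 in Inf (5.0e-12) and 0.81 ± 0.05 in IL-4/13 + Inf. The IL-4/13 value lay close to the threshold of 0.25 and fell to 0.25, 0.23 and 0.24, just short of it, without control replicate 1, control replicate 2 or IL-4/13 replicate 3. Exons of Nfkb2 overlap exons of Psd and of AC114539.1 on the opposite strand, over 6.52% and 11.6% of their length, and these neighbours had 6632 and 2587 reads in all libraries together. The library kit keeps the strand, but the strand setting of the counting is not stated, so reads of these neighbours cannot be told apart with certainty.

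Relb (ENSMUSG00000002983), the partner of p52, was at 25.9, 21.7 and 24.5 CPM in control, 29.4, 32.9 and 30.6 with IL-4/13, 56.7, 50.7 and 52.4 with Inf, and 56.4, 49.2 and 49.8 with IL-4/13 + Inf. Both conditions with Inf were above both without, and they overlapped each other. Relb rose by a log2 fold change of 0.36 ± 0.08 in IL-4/13 (adjusted p = 0.0031, edgeR) and 1.15 ± 0.08 in Inf (1.5e-13).

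Rela (ENSMUSG00000024927), which encodes p65, the main transactivating subunit, changed least. Its levels were 81.5, 74.2 and 77.7 CPM in control, 81.1, 78.0 and 80.6 with IL-4/13, 103, 98.6 and 105 with Inf, and 108, 104 and 101 with IL-4/13 + Inf. Control and IL-4/13 overlapped, as did Inf and IL-4/13 + Inf. Rela rose in Inf by a log2 fold change of 0.39 ± 0.05 (adjusted p = 2.3e-07, edgeR) and stood at 0.04 in IL-4/13, where its 95% interval ran from −0.07 to 0.15.

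Rel (ENSMUSG00000020275), the c-Rel subunit best known from lymphocytes, was the least abundant subunit. It was at 14.3, 12.8 and 13.7 CPM in control, 19.4, 16.0 and 12.1 with IL-4/13, 20.6, 22.5 and 18.5 with Inf, and 26.2, 28.5 and 22.8 with IL-4/13 + Inf. The IL-4/13 libraries spread over the whole range of control and into that of Inf. Rel rose in Inf (log2 fold change 0.60 ± 0.13, adjusted p = 5.6e-04, edgeR) and did not pass the test in IL-4/13, at 0.24 with a 95% interval of −0.04 to 0.51. Without IL-4/13 replicate 3 the same value was 0.39 (adjusted p = 0.047).

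In Inf, 3 of the 4 IκB proteins moved further than any subunit. Nfkbia (ENSMUSG00000021025) encodes IκBα, the inhibitor that is degraded and resynthesized within each round of signaling. It was at 39.5, 36.3 and 32.8 CPM in control, 49.0, 49.0 and 45.4 with IL-4/13, 282, 249 and 279 with Inf, and 259.7, 262 and 259 with IL-4/13 + Inf. Every library with Inf exceeded every library without it by a wide margin. The log2 fold change was 2.90 ± 0.06 in Inf (adjusted p = 1.8e-26, edgeR), a 7.45-fold rise, and 0.40 ± 0.06 in IL-4/13 (5.7e-05).

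Nfkbie (ENSMUSG00000023947) encodes IκBε, a slower-acting cytoplasmic inhibitor. Its levels were 14.7, 15.9 and 15.6 CPM in control, 19.7, 21.9 and 22.4 with IL-4/13, 36.5, 35.2 and 38.1 with Inf, and 37.7, 38.9 and 38.7 with IL-4/13 + Inf. IL-4/13 stood between control and the Inf conditions with no overlap. It rose by a log2 fold change of 0.46 ± 0.08 in IL-4/13 (adjusted p = 2.7e-04, edgeR) and 1.25 ± 0.08 in Inf (3.3e-14).

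Nfkbiz (ENSMUSG00000035356) encodes IκBζ, a nuclear protein that acts with p50 to switch on secondary inflammatory genes and that is a known effector of IL-17A and IL-1β. It was at 35.9, 34.8 and 30.1 CPM in control, 27.8, 27.8 and 34.7 with IL-4/13, 288, 258 and 257 with Inf, and 187, 196 and 212 with IL-4/13 + Inf. Control and IL-4/13 overlapped, and the combined condition lay wholly below Inf. Inf raised it by a log2 fold change of 2.99 ± 0.08 (adjusted p = 9.0e-16, edgeR), or 7.96-fold, the largest value among the members. In IL-4/13 the value was −0.17, with a 95% interval of −0.36 to 0.03, and without IL-4/13 replicate 3 it was −0.27 (adjusted p = 0.046).

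Bcl3 (ENSMUSG00000053175) encodes a nuclear IκB protein that binds p50 and p52 homodimers. It was at 15.5, 16.8 and 13.6 CPM in control, 23.4, 24.5 and 23.7 with IL-4/13, 67.9, 60.5 and 65.4 with Inf, and 49.3, 52.0 and 51.5 with IL-4/13 + Inf. No libraries of different conditions overlapped, and the combined condition fell between IL-4/13 and Inf. The log2 fold change was 0.64 ± 0.08 in IL-4/13 (adjusted p = 2.3e-06, edgeR) and 2.07 ± 0.08 in Inf (3.8e-20). Over 6.51% of their length, Bcl3 exons overlap the antisense gene Gm16175, which had 33 reads in all libraries together.

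Tnfaip3 (ENSMUSG00000019850) encodes A20, a ubiquitin-editing enzyme that ends NF-κB signaling. It was at 11.3, 13.9 and 11.6 CPM in control, 15.9, 12.6 and 13.6 with IL-4/13, 90.6, 82.8 and 78.6 with Inf, and 61.2, 64.4 and 62.4 with IL-4/13 + Inf. Control and IL-4/13 overlapped, and the combined condition lay below Inf in all libraries. The log2 fold change was 2.78 ± 0.08 in Inf (adjusted p = 3.5e-22, edgeR) and 0.21 ± 0.10 in IL-4/13, which did not pass the test (adjusted p = 0.24).

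The second question was what IL-4/13 added to cells that also received Inf. Against Inf, IL-4/13 + Inf raised Nfkb1 and Rel, lowered Nfkbiz, Bcl3 and Tnfaip3, and left 5 members uncalled, where 7.55% of all tested genes rose and 7.00% fell. Nfkb1 rose from 465 ± 6 to 857 ± 5 CPM (SD, n = 3), a log2 fold change of 0.88 ± 0.04 (adjusted p = 3.1e-16, edgeR) or 1.84-fold. The rise of Rel was smaller and less secure, at 0.33 ± 0.12 (adjusted p = 0.048, edgeR). It kept its call in 4 of the 12 fits that left out 1 library. Without Inf replicate 3, the library furthest from its partners, the value was 0.26 (adjusted p = 0.14).

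The 3 members that fell are Tnfaip3 (A20) and those nuclear IκB proteins that are among the members. Nfkbiz fell from 267.9 to 198 CPM (log2 fold change −0.43 ± 0.07, adjusted p = 1.9e-04, edgeR). Bcl3 fell from 64.6 to 50.9 CPM (−0.34 ± 0.07, adjusted p = 2.7e-04, edgeR). Tnfaip3 fell from 84.0 to 62.7 CPM (−0.42 ± 0.07, adjusted p = 3.3e-05, edgeR). In each case all 3 combined libraries were below all 3 Inf libraries, and these calls held in all 12 fits that left out 1 library. The levels nonetheless remained above control and above IL-4/13.

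Of the 5 uncalled members, Nfkb2 was higher by 0.17 (adjusted p = 0.012, edgeR), short of the fold threshold. The 95% intervals of the log2 fold change ran from −0.08 to 0.13 for Rela, −0.18 to 0.11 for Relb, −0.16 to 0.05 for Nfkbia and −0.07 to 0.22 for Nfkbie. For these 4 genes the Inf and IL-4/13 + Inf libraries overlapped.

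Set against IL-4/13 alone, IL-4/13 + Inf raised all 10 members, where 13.3% of genes rose and 11.0% fell. The members' median log2 fold change was 0.89. Nfkbiz (2.73 ± 0.08), Nfkbia (2.44 ± 0.06) and Tnfaip3 (2.15 ± 0.08) had the largest values and Rela (0.38 ± 0.05) the smallest. This comparison shares its libraries with the others, so it adds no separate evidence for the combined condition.

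**Figure D2:**
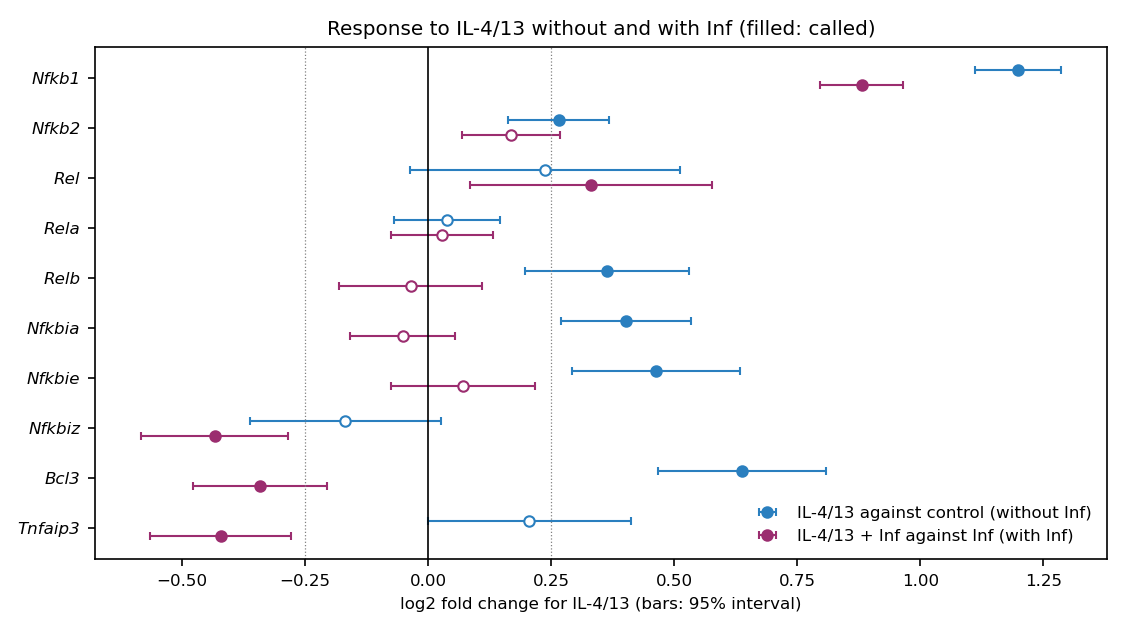
Log2 fold change for IL-4/13 in each member without Inf (blue, IL-4/13 against control) and with Inf (purple, IL-4/13 + Inf against Inf), with bars for the 95% interval and filled points for calls; dotted lines mark a log2 fold change of 0.25 either way. Bcl3 lies at 0.64 without Inf and at −0.34 with it, whereas Nfkb1 lies above 0 in both.

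The third question was whether the response to IL-4/13 differed with Inf present, tested as the interaction in the same edgeR fit. The log2 response was lower with Inf for 6 members (Nfkb1, Relb, Nfkbia, Nfkbie, Bcl3 and Tnfaip3) and higher for none. Among all tested genes 1.59% were lower and 1.52% higher. Of the 26 tested textbook NF-κB target genes described below, 6 were lower and 1 higher, with a median of −0.54. Some of these targets had almost no reads without Inf, so the median takes in poorly measured values. Ccl20 (−3.28 ± 1.48) and Nos2 (1.95 ± 1.89), both uncalled, averaged at most 0.158 CPM without Inf. The members' median difference was −0.36, and that over all tested genes was within 0.01 of 0. Bcl3 had the largest difference, −0.98 ± 0.11 (adjusted p = 4.0e-07, edgeR), and its direction turned, since the mean difference made by IL-4/13 was 8.52 CPM without Inf and −13.7 CPM with it.

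Tnfaip3 differed by −0.63 ± 0.12 (adjusted p = 0.0016, edgeR), with an uncalled value of 0.21 without Inf and a fall with it. For Nfkbia the difference was −0.45 ± 0.08 (adjusted p = 7.8e-04, edgeR). IL-4/13 raised Nfkbia by 11.6 CPM in control cells, and with Inf the means differed by −9.76 CPM with overlapping libraries. Relb (−0.40 ± 0.11, adjusted p = 0.032, edgeR) and Nfkbie (−0.39 ± 0.11, adjusted p = 0.040) were close to the threshold and kept their calls in only 5 and 3 of the 12 fits that left out 1 library.

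For Nfkb1 the scale of comparison decided the direction. On the log2 scale the response to IL-4/13 was smaller when Inf was present (−0.32 ± 0.06, adjusted p = 8.5e-04, edgeR). In CPM the mean rise was 254 without Inf and 391 with it, a difference that was not tested on that scale. The interaction was not called for Nfkb2 (−0.10, 95% interval −0.24 to 0.05), Rel (0.09, −0.28 to 0.46), Rela (−0.01, −0.16 to 0.14) or Nfkbiz (−0.27, −0.51 to −0.02, adjusted p = 0.29). Nfkbiz therefore fell with Inf without a called difference from its response in control cells.

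**Figure D3:**
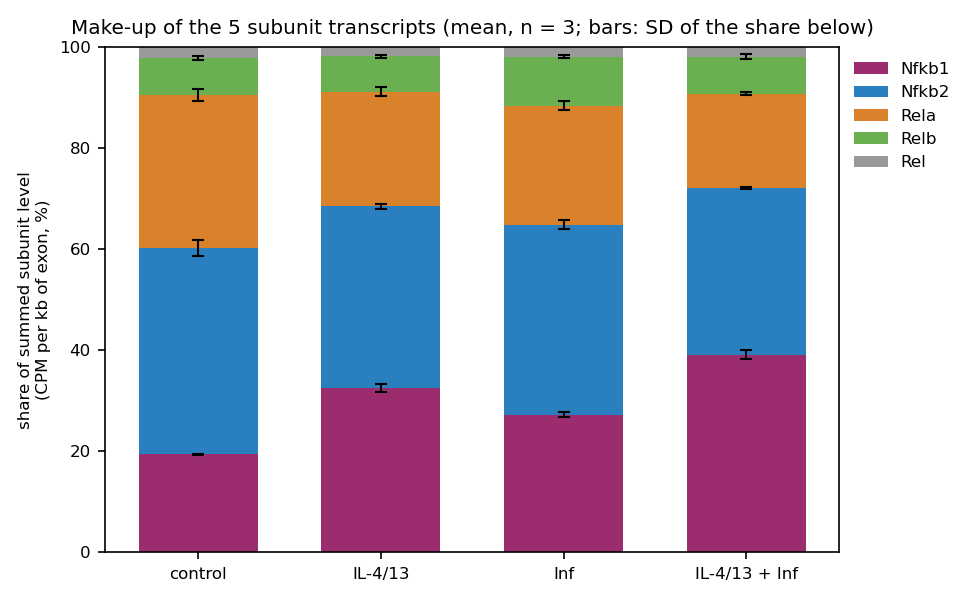
Share of each subunit in the summed CPM per kb of exon of the 5 subunits, as stacked means of 3 libraries per condition, with bars for the SD of the share below each line. The share of Nfkb1 (bottom) is 19.4% in control and 39.1% in IL-4/13 + Inf, while that of Rela (orange) is 30.2% and 18.7%.

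To compare levels between genes, CPM were divided by the length of each gene's annotated exons (CPM per kb), as a description with no test. Among the subunit transcripts the share of Nfkb1 was 19.4% ± 0.2 in control, 32.5% ± 0.8 with IL-4/13, 27.2% ± 0.5 with Inf and 39.1% ± 0.9 with IL-4/13 + Inf (SD, n = 3). The share of Rela was 30.2% ± 1.1, 22.7% ± 0.9, 23.5% ± 0.9 and 18.7% ± 0.3 in the same order. The other subunits held 40.9% to 33.0% (Nfkb2), 7.37% to 7.34% (Relb) and 2.17% to 1.90% (Rel) in control and IL-4/13 + Inf. These shares depend on the length chosen, because the exons of Nfkb1 cover 12061 bases while its longest annotated transcript has 4149. Divided by the longest transcript, a setting added after the lengths were seen, the share of Nfkb1 was 37.5% in control and 61.5% in IL-4/13 + Inf, and the order of the 4 conditions was the same.

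Ratios between transcripts were taken on levels per kb of exon, and they do not give ratios of the proteins, which these libraries do not measure. The ratio of Nfkbia to Rela was 0.889 ± 0.071 in control, 1.14 ± 0.06 with IL-4/13, 5.03 ± 0.20 with Inf and 4.77 ± 0.15 with IL-4/13 + Inf. The ratio of Tnfaip3 to Nfkb1 was 0.105 ± 0.016, 0.0524 ± 0.0088, 0.301 ± 0.018 and 0.122 ± 0.003. That of Nfkbiz to Nfkb1 was 0.413 ± 0.049, 0.161 ± 0.016, 1.38 ± 0.08 and 0.556 ± 0.033. Both ratios to Nfkb1 were lower in the IL-4/13 condition than in control and lower in IL-4/13 + Inf than in Inf, in every library. By the longest transcript they were smaller by a constant factor each, at 0.0421 in control and 0.121 in Inf for Tnfaip3 and at 0.173 and 0.580 for Nfkbiz. Which of Nfkbiz and Nfkb1 had the higher level in Inf therefore turned with the length chosen.

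In order of level per kb of exon, control cells had Nfkb2 (34.3 ± 2.3), Rela (25.3 ± 1.2), Nfkbia (22.5 ± 2.1) and Nfkb1 (16.2 ± 0.6) at the top. Nfkbiz (6.70), Bcl3 (6.19), Relb (6.18) and Nfkbie (5.07) followed, and Rel (1.82 ± 0.10) and Tnfaip3 (1.70 ± 0.20) were last. Neighbours whose libraries overlapped were Rela and Nfkbia, Nfkbiz and Bcl3, Bcl3 and Relb, and Rel and Tnfaip3. In Inf, Nfkbia led at 167.8 ± 11.3 CPM per kb, and Nfkbiz (53.4 ± 3.5) and Nfkb2 (53.4 ± 2.7) overlapped in the next place. In IL-4/13 + Inf, Nfkbia (161.7 ± 0.8) was followed by Nfkb1 (71.1 ± 0.4) and Nfkb2 (59.9 ± 1.7), and Rel (3.46 ± 0.38) was last. By the longest transcript, Nfkb1 would lead in control (47.2 ± 1.7), IL-4/13 (108.4 ± 5.6) and IL-4/13 + Inf (206.6 ± 1.2), and Nfkbia only in Inf.

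Other genes of the pathway were read from lists chosen by role. Outside the members and the list of target genes, 43 pathway genes were tested, with Traf1 and Birc3 counted as adaptors, of which 18 rose and 3 fell in Inf against control, where 16.3% of all genes rose and 15.3% fell. IL-4/13 raised 5 and lowered 1 of them, against 2.78% and 2.57% of all genes. Against Inf, IL-4/13 + Inf raised 6 and lowered 1, against 7.55% and 7.00% of all genes. The medians of the 43 were 0.19, 0.04 and 0.02 in these comparisons, and those of all genes 0.0073, −0.0014 and −0.0098.

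The remaining IκB proteins were Nfkbib, a cytoplasmic inhibitor, and Nfkbid, a nuclear one. Nfkbib was at 16.8 ± 0.6 CPM in control, 19.2 ± 1.4 with IL-4/13, 24.3 ± 1.6 with Inf and 29.4 ± 1.2 with IL-4/13 + Inf. It rose with Inf (log2 fold change 0.53 ± 0.09) and again from Inf to IL-4/13 + Inf (0.28 ± 0.08, adjusted p = 0.012, edgeR). Nfkbid stayed at or below 1.38 CPM on average. Its log2 fold change from Inf to IL-4/13 + Inf was 0.52 ± 0.36 (adjusted p = 0.34, edgeR), which was not called. All 6 IκB proteins rose in Inf, where 16.3% of all genes did. From Inf to IL-4/13 + Inf, 1 rose and 2 fell, where 7.55% of all genes rose and 7.00% fell. The 2 falls are those of the members Nfkbiz and Bcl3, given above.

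Of 14 genes of A20, its partners and other feedback, 7 rose and none fell in Inf. Over all genes, 16.3% rose and 15.3% fell. Zc3h12a, which encodes the RNase Regnase-1, went from 11.9 ± 1.6 to 223 ± 6 CPM (log2 fold change 4.22 ± 0.07) and was 238 ± 7 in IL-4/13 + Inf, an uncalled step. Tnip3, an A20-binding protein, was at 0.259 ± 0.19 CPM in control, 1.38 ± 0.35 with IL-4/13, 20.3 ± 0.5 with Inf and 30.8 ± 2.2 with IL-4/13 + Inf. From Inf to IL-4/13 + Inf it rose by a log2 fold change of 0.60 ± 0.10 (adjusted p = 3.2e-05, edgeR), while Tnfaip3 fell. They were the 1 rise and the 1 fall of this list in that comparison, near the 7.55% and 7.00% of all genes.

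Among 11 genes of the IκB kinase complex and the kinases above it, 3 rose and 1 fell in Inf, counts near the 16.3% and 15.3% of all genes that did. Map3k8, which encodes the kinase Tpl2 that p105 binds, rose from 3.04 ± 0.25 to 18.8 ± 0.8 CPM (log2 fold change 2.63 ± 0.12), and further to 24.4 ± 1.4 in IL-4/13 + Inf (0.37 ± 0.09, adjusted p = 0.0027, edgeR). Ikbke, a noncanonical IκB kinase, rose from 9.82 to 54.7 CPM (2.47 ± 0.08). It fell to 45.8 CPM in IL-4/13 + Inf (−0.26 ± 0.07), close to the threshold of 0.25. Tbk1, its relative, rose by 0.40 ± 0.07.

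Map3k14, which encodes NIK, the kinase that starts the processing of p100, went the other way. It was at 36.0 ± 2.0 CPM in control, 57.1 ± 4.3 with IL-4/13, 20.8 ± 1.8 with Inf and 23.5 ± 1.5 with IL-4/13 + Inf. It rose in IL-4/13 (log2 fold change 0.66 ± 0.07, adjusted p = 1.4e-07, edgeR) and fell in Inf (−0.79 ± 0.08, adjusted p = 1.8e-09). Chuk, the IKKα subunit, rose from 75.0 to 90.9 CPM between Inf and IL-4/13 + Inf (0.28 ± 0.06, adjusted p = 4.8e-04, edgeR).

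Of 17 receptor-proximal adaptors and ubiquitin ligases, 7 rose and 2 fell in Inf. Over all genes 16.3% rose and 15.3% fell, and the falls were near that share. Traf1 (log2 fold change 3.15 ± 0.20), Birc3 (1.24 ± 0.05) and Traf3ip2, the IL-17 receptor adaptor Act1 (1.01 ± 0.10), had the largest rises. Traf5 (−0.60 ± 0.12) and Rbck1 (−0.33 ± 0.05) fell. Traf1 (0.47 ± 0.13) and Traf3 (0.32 ± 0.06), an inhibitor of the non-canonical branch, rose from Inf to IL-4/13 + Inf, and none of the 17 fell. These counts were near the 7.55% of all genes that rose and the 7.00% that fell.

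**Figure D4:**
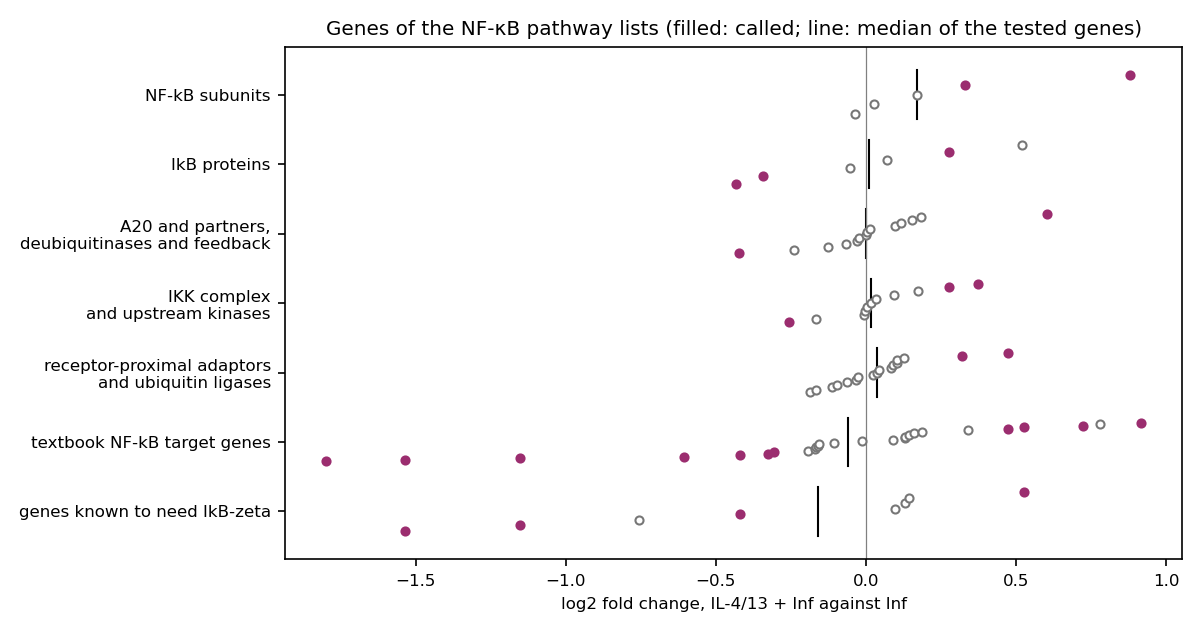
Log2 fold change of IL-4/13 + Inf against Inf for each tested gene of the pathway lists, 1 row per list. Filled points mark calls and a black line marks the list's median. Of all tested genes, 7.55% rose and 7.00% fell in this comparison. The lines sit at 0.04 for the adaptors (2 rises and no fall among 17), 0.02 for the kinases (2 rises and 1 fall among 11), 0.0020 for the feedback genes (1 rise and 1 fall among 14) and −0.06 for the target genes (4 rises and 7 falls among 26).

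Textbook NF-κB target genes were read beside the members. Their list was also chosen with earlier results of these data known, so its counts are a description and no independent test. All 26 that could be tested of 28 rose in Inf, where 16.3% of all genes did. Tnf and Icam1 did not pass the filter and averaged at most 0.138 CPM. From Inf to IL-4/13 + Inf, where 7.55% of all genes rose and 7.00% fell, 4 rose, 7 fell and 15 were not called, with a median of −0.06. Ptgs2, the inducible cyclooxygenase, went from 379 ± 34 to 716 ± 28 CPM (0.92 ± 0.05, adjusted p = 1.7e-14, edgeR), and complement C3 from 741 ± 94 to 1223 ± 25 (0.72 ± 0.07). Csf2, the cytokine GM-CSF, went from 24.7 ± 2.2 to 35.5 ± 1.1 CPM (0.53 ± 0.10).

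Targets that fell included Saa3, an acute-phase protein, from 5245 ± 400.3 to 2359 ± 247 CPM (−1.15 ± 0.09, adjusted p = 5.9e-06, edgeR). Ccl20, a chemokine for CCR6-bearing cells, went from 5.52 ± 0.89 to 1.90 ± 0.33 CPM (−1.54 ± 0.26). Nos2, the inducible nitric oxide synthase, went from 367 ± 44 to 241 ± 9 CPM (−0.60 ± 0.09). Their levels in control were at or below 0.256 CPM.

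A list of 9 genes taken as needing IκBζ overlaps the targets, and 8 of them passed the filter. Their need for IκBζ was not tested in these cells. All 8 rose in Inf, where 16.3% of all genes did. In IL-4/13 + Inf against Inf, where 7.55% of all genes rose and 7.00% fell, Ccl20, Saa3 and Lcn2 fell and Csf2 rose. The other 4, Il6, Csf3, Zc3h12a and S100a8, were not called. Nfkbiz itself also fell there, and a link between these falls was not tested. Lcn2, which encodes the iron-binding lipocalin 2, went from 1252 ± 52 to 937 ± 31 CPM (−0.42 ± 0.05, adjusted p = 8.6e-08, edgeR). Il6 was at 111 ± 6 and 122 ± 5 CPM. The median of the 8 was −0.16.

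For each member the genes nearest to it were found by the distance between their 3 log2 fold changes against control, among 11254 genes that averaged at least 5 CPM in 1 condition. Nearest to Nfkb1 were Abcd2 (distance 0.23), Il1rap (0.24) and Xdh (0.27). Il1rap encodes the shared subunit of the IL-1 receptor family. For Nfkbiz they were H2-T10 (0.20), H2-T22 (0.25) and Cyp7b1 (0.25), and for Bcl3 C1qtnf1 (0.16), Angptl4 (0.33) and Sorcs1 (0.37). Nfkbia was nearest to Ttc39c (0.12), Cp (0.27) and Slfn2 (0.30), and Tnfaip3 to Cyp7b1 (0.28), Bdkrb2 (0.29) and Gdnf (0.29).

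Rela, whose changes were small, had close neighbours in Carhsp1 (0.01), Lrba (0.01) and Tex2 (0.03). Relb was nearest to Sbno2 (0.03), Stx11 (0.13) and Gpr137b (0.14), and Nfkbie to Gcnt2 (0.12), Mndal (0.14) and Gm12138 (0.17). Rel was nearest to Fmn1 (0.08), Ifi35 (0.09) and Tasp1 (0.10). The gene nearest to Nfkb2 was Psd (0.03), which shares exon sequence with it on the opposite strand, followed by Fmn1 (0.07) and Ctxnd1 (0.09). Small distances are common among genes with small changes, and all distances rest on the same 12 libraries.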

How the data were processed

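The authors treated 3T3-L1 cells for 24 hours, prepared stranded poly(A) libraries and deposited 1 table of raw counts per gene for 12 libraries. Submitters' processing notes name STAR, featureCounts and the build GRCm39. Versions and the strand setting are not given in the sources used here. Cytokine doses are from the study's text. Of 56941 genes, 23268 had no symbol in the table.

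Genes were kept by filterByExpr (minimum count 10, total 15), scaled by TMM and tested in 1 robust quasi-likelihood fit over all libraries (edgeR 4.0.16, R 4.3.3). P-values were adjusted by Benjamini-Hochberg over 14810 genes per comparison. Calls needed a log2 fold change past 0.25 either way at an adjusted p under 0.05. SEs are the unshrunk log2 coefficient divided by the square root of F, and 95% intervals use the fit's degrees of freedom. CPM are counts scaled to the TMM-adjusted library total. The interaction is the log2 response to IL-4/13 with Inf minus that without. Counts were simulated from each gene's mean over these libraries. The test called 83.5% of genes with a log2 change of 1 for Inf against control and 84.1% for IL-4/13 against control. It called 81.7% for IL-4/13 + Inf against Inf and 74.6% for the interaction. In the same order, 13, 9, 11 and 12 unchanged genes were called. Smaller changes were not simulated, so these shares do not describe the members' interaction values, all of which were smaller.

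Exon lengths and overlaps come from GENCODE M21 (GRCm38), a different build from the files, so gene coordinates are not given, and promoter positions are those of RefSeq's GRCm38.p6 table. Named genes are the 10 members, the 3 largest called rises and falls per list in Inf against control and in IL-4/13 + Inf against Inf among genes with a mean of at least 5 CPM, and the 3 nearest genes per member. Other genes named (Nfkbid, Tnf, Icam1, Il6, S100a8, Map3k14 in IL-4/13, and the markers Dcn, Col1a1, Adipoq, Lep, Cfd, Fabp4, Pparg, Cd14 and C1qa) were added after their values were seen. Members and lists were chosen with earlier results of these data known, and no list was tested as a set. Alternatives were DESeq2 1.42.0, 2 other scalings, 2 filters, other thresholds, a replicate block, fits of the compared groups alone and each library left out.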

Additional observations from a re-analysis of the deposited data

Results flagged for a closer look

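For 6 members the log2 response to IL-4/13 differed between cells with and without Inf, by the interaction test in edgeR. The response with Inf minus that without was −0.32 for Nfkb1, −0.40 for Relb, −0.45 for Nfkbia, −0.39 for Nfkbie, −0.98 for Bcl3 and −0.63 for Tnfaip3. Of these, Bcl3 was called as a rise without Inf and as a fall with it. Nfkb1 was called as a rise in both, and Relb, Nfkbia and Nfkbie as a rise without Inf and not called with it. Tnfaip3 was not called without Inf and fell with it. The calls of Nfkb1, Nfkbia, Bcl3 and Tnfaip3 held in all 12 fits that left out 1 library, and those of Relb and Nfkbie in 5 and 3. Single libraries were not screened as outliers, since each condition has 3.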

How the results depend on the processing

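The counts of members called moved by more than 1.5 times under 1 setting, a log2 fold change threshold of 1 in place of 0.25. There IL-4/13 against control kept 1 call of 6, IL-4/13 + Inf against Inf 0 of 5, IL-4/13 + Inf against IL-4/13 4 of 10 and the interaction 0 of 6, while Inf and IL-4/13 + Inf against control kept 7 each. With 1 library left out, the counts ranged from 5 to 7 for IL-4/13 against control, 4 to 5 for IL-4/13 + Inf against Inf and 4 to 6 for the interaction, and stayed at 10 in the other 3 comparisons. The replicate numbers did not pair the libraries (correlation of same-numbered deviations −0.15 to 0.05). With a replicate block the interaction kept 5 of 6 calls, losing Nfkbie (−0.39, adjusted p = 0.054, edgeR), and the counts of the other comparisons were the same. Nfkbie was also lost there with DESeq2 (adjusted p = 0.055) and with no filter (0.062). The call of Rel in IL-4/13 + Inf against Inf was lost with a stricter filter (adjusted p = 0.060), at an adjusted p threshold of 0.01, and in 8 fits that left out 1 library, with adjusted p up to 0.21. The sign turned in 6 uncalled values. With 1 library left out, Relb in IL-4/13 + Inf against Inf ranged from −0.103 to 0.012 (above 0 without Inf replicate 1), and the interaction ranged from −0.058 to 0.272 for Rel (below 0 without IL-4/13 replicate 3) and from −0.046 to 0.0186 for Rela (above 0 without control replicate 2, Inf replicates 1 or 3, or IL-4/13 + Inf replicate 3). By the longest transcript, the Nfkb1 share was 54.6% with IL-4/13, 61.5% with IL-4/13 + Inf, 48.3% with Inf and 37.5% in control. The cause of these changes was not tested. These settings are reported for the members only. Calls of list genes near the threshold of 0.25, such as Ikbke, Nfkbib and Chuk in IL-4/13 + Inf against Inf, carry no such check. The 3 libraries per condition limit the precision of every value.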
